A study of Mus musculus with 8 samples.

Results

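Glucose handling was followed through 32 genes of glycolysis, gluconeogenesis, glycogen turnover, fructose entry and the hypoxia response in mouse livers with Sco1 targeted for deletion in hepatocytes. The genes were chosen by name, and each was read from the brightest probe set whose annotation gave that gene alone. By this rule 28 of the 32 were measured, out of 22180 genes on the arrays, and the other 4, Gpi1, Pfkfb1, Aldoa and Eno1, could not be read: the probe set of Aldoa carried a second symbol and Gpi1, Pfkfb1 and Eno1 had no probe set annotated to them alone in the table used here. Expression is given in log2 units, in which a difference of 1 is a 2-fold change.

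Livers came from 8 mice of strain C57BL/6N aged 27 days, with 1 array of total RNA per mouse. The 4 knockout mice carried the Albumin-Cre transgene, whose promoter drives Cre in hepatocytes, together with 2 floxed copies of Sco1. The gene encodes a copper chaperone of cytochrome c oxidase assembly. The 4 mice of the wild-type group also carried floxed Sco1: by their genotype labels mice 1 and 3 had the Cre and 1 floxed allele, so that 1 copy could be deleted in their hepatocytes, whereas in mice 2 and 4 both copies were floxed and Cre was lacking. The titles of all 4 name Sco1fl/fl, that is both copies floxed, and no Cre. For mice 1 and 3 titles and genotype labels thus disagree on Cre and on the number of floxed alleles, and the classes of control used below follow the genotype labels. The deletion is aimed at hepatocytes, and Sco1 in other cells of the liver was not measured separately. Whole-tissue RNA was measured, so fewer cells of a type and less RNA per cell cannot be told apart. Nothing in the labels said whether the mice were littermates, fed or fasted, or killed at the same hour, and p-values measure the spread between these mice.

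Array medians lay between 5.79 and 5.89. Sco1 stood at 7.48 to 7.72 in knockout livers and at 7.84 to 8.19 in wild-type livers (difference -0.41 ± 0.09, SE; adjusted p = 0.0633, limma with Benjamini-Hochberg adjustment). Markers of hepatocytes were high and level, the mean of 8 measured markers lying between 12.97 and 13.02 in all 8 livers. Some arrays stood apart from their groups. Both livers numbered 1 had the clock gene Dbp at 9.66 and 9.86, against 6.87 to 7.33 in the other 6, and knockout liver 4 had a mean of 3 Y-linked genes of 7.36 against 8.60 to 8.86 in the other arrays.

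In the fed liver, glycolysis turns glucose into pyruvate and glycogen synthesis stores it, and in the fasted liver glycogen breakdown and gluconeogenesis send glucose back to the blood. Cells that cannot respire usually lean on glycolysis and release lactate. Low oxygen stabilises the transcription factor HIF1A, which raises transcription of glucose transporters, glycolytic enzymes, lactate dehydrogenase, Vegfa and its own brake Egln3. Cytochrome c oxidase is the enzyme that consumes the oxygen, and the comparison asks whether these genes were at other levels where its assembly factor was targeted in hepatocytes.

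None of the 28 measured genes, each read from its brightest probe set, passed the test between knockout and wild-type livers. A dimmer Pgam1 probe set did pass when every probe set was tested on its own, as described with that gene. By limma, with p-values adjusted over all genes at a threshold of 0.05, 0 were higher and 0 lower, against 1.15% of all genes, of which 0.433% were higher and 0.717% lower. Differences ran from -0.45 for the glycogen-targeting subunit gene Ppp1r3c to 0.34 for the oxygen sensor gene Egln3, 14 being positive and 14 negative. Their median was -0.001, beside 0.03 over all genes and -0.02 over the brighter 11090 genes, and their median size was 0.13, beside 0.11 over all genes. At an unadjusted p under 0.05 there were 9 genes, 4 higher and 5 lower, or 32.1%, beside 16.7% of all genes and 19.8% of the brighter ones. Groups did not overlap for 3 genes, Ldha, Pygl and Khk, or 10.7%, which is no result about the list, since all genes gave 10.7%.

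The intervals say how large a difference these arrays leave room for. Of the 28 genes 25 had a 95% interval that stayed inside a 1.5-fold change either way, and 11 of these stayed inside 1.25-fold: Gckr, Pfkl, Tpi1, Pgk1, Pkm, Slc16a1, Pck1, Fbp1, G6pc, Gbe1 and Hif1a. The 3 whose intervals reached past 1.5-fold were Ppp1r3b, Ppp1r3c and Egln3. These counts rest on 1 probe set per gene: the second probe set of Pgam1, described with that gene, stood at 152.5% of wild-type and its interval passed 1.5-fold. Half-widths ran from 0.15 to 0.49, with a median of 0.23. RMA, the method that made these values, pulls differences toward 0, and the intervals hold for its scale.

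**Figure D1:**
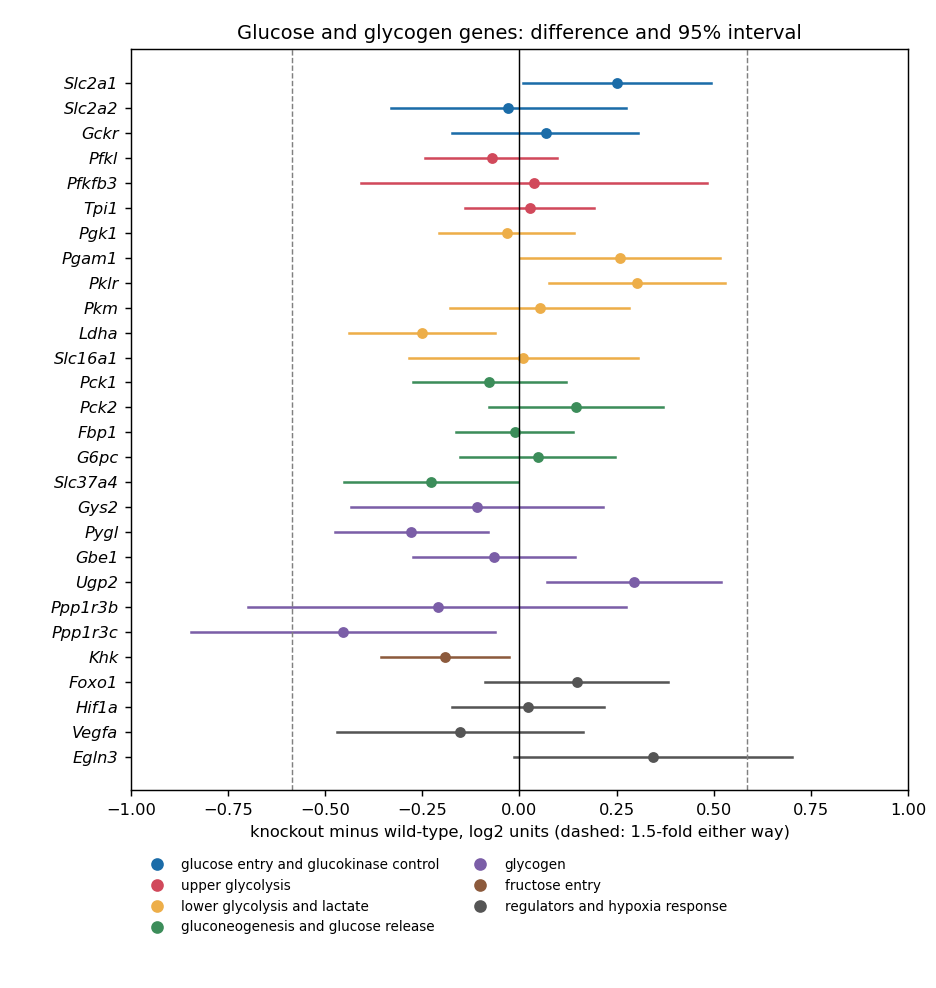
Difference of each measured gene, knockout minus wild-type in log2 units (point), with its 95% interval from limma (line, 4 livers per group), coloured by role; dashed lines mark 1.5-fold either way. The intervals of Ppp1r3b, Ppp1r3c and Egln3 cross a dashed line, and those of the other 25 genes do not.

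Glucose enters and leaves hepatocytes mainly through the transporter Slc2a2 (GLUT2). Its level was 11.49 to 11.85 in knockout and 11.46 to 12.07 in wild-type livers, a difference of -0.03 ± 0.14 (SE, n = 4 each). Gckr, the protein that holds glucokinase in the nucleus when glucose is low, differed by 0.07 ± 0.11. Slc2a1 (GLUT1), a transporter that most hepatocytes carry little of and that hypoxia is known to induce, read 9.81, 9.86, 9.80 and 9.70 in knockout livers 1 to 4. The wild-type livers read 9.20, 9.61, 9.74 and 9.61. Only knockout liver 4 lay below a wild-type liver, and wild-type liver 1 was the lowest of all. The means differed by 0.25 ± 0.11, or 118.9% of wild-type with an interval of 100.5% to 140.7% (adjusted p = 0.286), and by 0.14 without wild-type liver 1. A second Slc2a1 probe set differed by -0.08 ± 0.07. Its mean of 5.69 lay below every array median, the lowest being 5.79, so its sign says little about Slc2a1.

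In the upper part of glycolysis 3 of 6 genes were measured and none of the 3 passed. Pfkl, the liver form of phosphofructokinase and the committed step, differed by -0.07 ± 0.08. Tpi1, which interconverts the triose phosphates, differed by 0.03 ± 0.07. Pfkfb3, which makes the activator of phosphofructokinase, read 7.17, 6.89, 6.56 and 6.84 in knockout livers 1 to 4 and 7.51, 6.55, 6.59 and 6.67 in wild-type livers 1 to 4. The highest value of each group came from mouse 1, and the group difference of 0.04 ± 0.20 was smaller than the distance between mouse 1 and its group.

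Of the lower pathway 6 of 7 genes were measured. Pgk1, the first ATP-making step and a classic HIF target, lay at 12.15 to 12.37 in knockout and 12.22 to 12.38 in wild-type livers, a difference of -0.03 ± 0.08 whose interval ran from 86.6% to 110.3% of wild-type. Pkm, the pyruvate kinase of most other cells, differed by 0.05 ± 0.10, and Slc16a1, the lactate and pyruvate carrier MCT1, by 0.01 ± 0.13.

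Pklr, the pyruvate kinase of hepatocytes and a gene that glucose and insulin induce, read 12.03, 11.66, 11.82 and 11.90 in knockout livers 1 to 4. In wild-type livers it read 11.77, 11.46, 11.51 and 11.46. In all, 3 knockout livers lay above every wild-type liver and the groups overlapped through wild-type liver 1, which stood above knockout liver 2. The difference was 0.30 ± 0.10, or 123.3% of wild-type (105.4% to 144.2%), at adjusted p = 0.184.

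Ldha, the subunit of lactate dehydrogenase that favours lactate formation and that hypoxia induces, stood on the other side. Knockout livers read 8.11, 8.25, 8.10 and 8.21, and wild-type livers 8.25, 8.44, 8.41 and 8.57. Every knockout liver lay below every wild-type liver, the nearest pair being knockout liver 2 (8.248) and wild-type liver 1 (8.253). The difference was -0.25 ± 0.09, or 84.0% of wild-type (73.8% to 95.7%), at adjusted p = 0.182.

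Pgam1, the phosphoglycerate mutase of liver, had 2 probe sets, of which 1 passed the test and 1 did not. The brighter, used here by rule, read 10.97, 11.08, 11.27 and 11.56 in knockout livers and 10.92, 10.94, 11.05 and 10.93 in wild-type livers, a difference of 0.26 ± 0.12 with overlapping groups (adjusted p = 0.298, and 0.15 without knockout liver 4). The dimmer read 9.84, 9.81, 10.30 and 10.10 in knockout livers and 9.39, 9.46, 9.36 and 9.41 in wild-type livers. All knockout livers lay above all wild-type livers in this second set. When each of 23521 probe sets was tested on its own, a choice made after the values were seen, the dimmer set rose by 0.61 ± 0.11, to 152.5% of wild-type (adjusted p = 0.0303, limma with Benjamini-Hochberg adjustment), where 1.12% of probe sets passed and 0.404% rose. Removing knockout liver 1 or knockout liver 2 kept that call, and removing any 1 of the other six arrays lost it (adjusted p up to 0.0876). Over 18 settings it passed in 7 and not in 11, with an adjusted p of 0.0166 to 0.236. Probe set numbers of the other measured genes ran chromosome by chromosome, and Pgam1 lies on chromosome 19. The brighter set was numbered between Slc16a1 on chromosome 3 and Slc2a1 on chromosome 4. The dimmer was numbered between Vegfa on chromosome 17 and Ppp1r3c on chromosome 19. By number, then, the dimmer set belongs with the Pgam1 locus, and the brighter may read a near-identical copy elsewhere. Probe sequences were not read, so which transcripts each set reads was not tested.

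**Figure D2:**
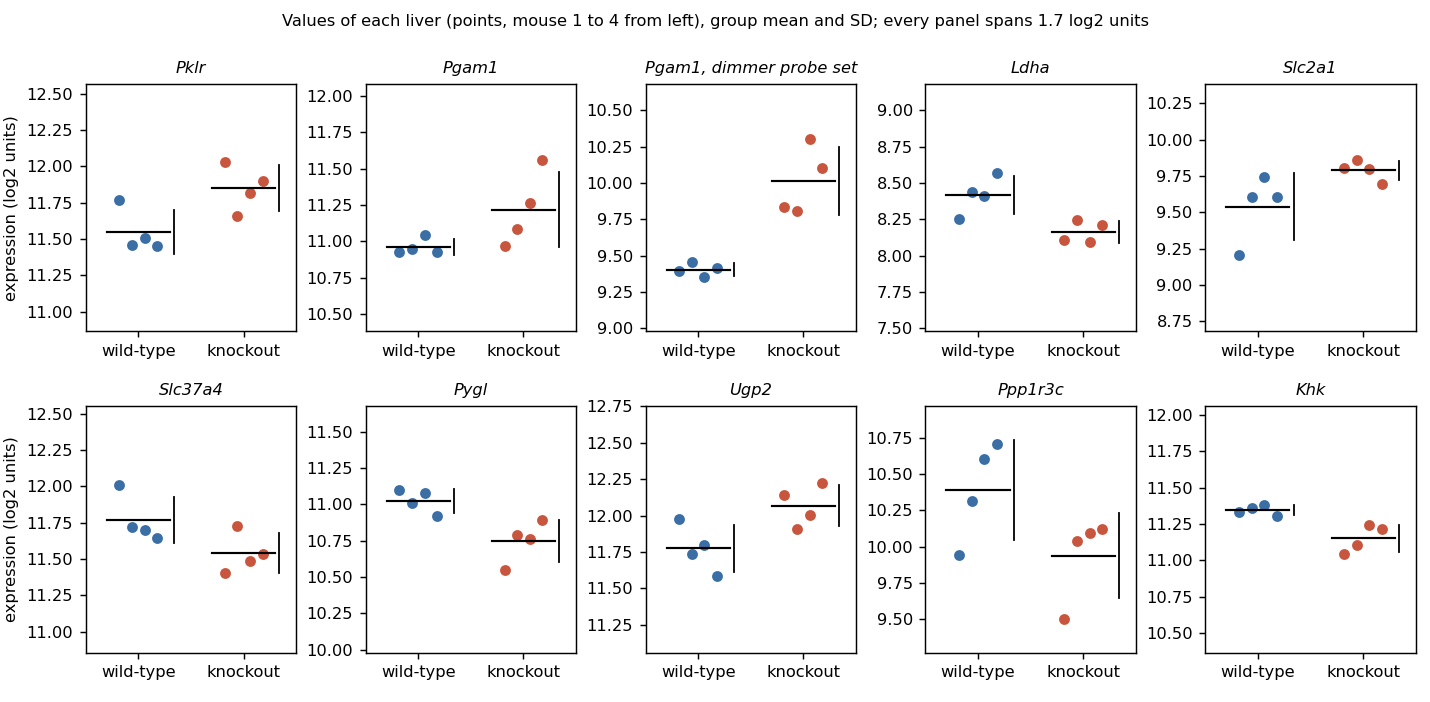
Expression in log2 units of 9 genes, and of the second Pgam1 probe set, in the 4 wild-type and 4 knockout livers (points, mouse 1 to 4 from left to right), with the group mean (horizontal bar) and SD (vertical bar beside it); every panel spans the same height. Groups do not overlap for Ldha, Pygl, Khk and the dimmer Pgam1 probe set, and they overlap in the other panels.

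None of the 5 genes of glucose output passed. Pck1, the cytosolic PEP carboxykinase that fasting induces, read 12.99, 12.82, 12.65 and 12.82 in knockout and 12.91, 13.01, 12.79 and 12.88 in wild-type livers, with overlapping groups. Its difference of -0.08 ± 0.09 had an interval of 82.6% to 108.6% of wild-type. G6pc, the phosphatase that frees glucose, differed by 0.05 ± 0.09 and Fbp1, fructose-1,6-bisphosphatase, by -0.01 ± 0.07. Both lay near the top of the scale, the mean of Fbp1 being 0.58 below the highest value of any probe set. Pck2, the mitochondrial PEP carboxykinase, differed by 0.15 ± 0.10, knockout livers spanning 7.56 to 7.81 and wild-type livers 7.35 to 7.80.

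Slc37a4 carries glucose 6-phosphate into the endoplasmic reticulum to meet the phosphatase. It read 11.41, 11.73, 11.49 and 11.54 in knockout livers and 12.01, 11.72, 11.70 and 11.65 in wild-type livers. Wild-type liver 1 was far above the rest, and knockout liver 2 overlapped the other wild-type livers. The difference was -0.23 ± 0.10, or 85.4% of wild-type (73.2% to 99.7%), at adjusted p = 0.290, and it was -0.149 without wild-type liver 1.

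Among the 6 glycogen genes 1 difference was positive and 5 were negative, with a median of -0.16, and none of the 6 passed. Pygl, the liver glycogen phosphorylase that breaks glycogen down, read 10.55, 10.79, 10.76 and 10.89 in knockout and 11.10, 11.01, 11.08 and 10.92 in wild-type livers. The groups did not overlap, with knockout liver 4 just below wild-type liver 4. Its difference of -0.28 ± 0.09, or 82.5% of wild-type (72.0% to 94.5%), had the lowest adjusted p of the 28 genes, 0.164.

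Ugp2 makes the UDP-glucose from which glycogen is built, and it was the positive one of the 6. Values were 12.14, 11.91, 12.00 and 12.22 in knockout livers and 11.98, 11.73, 11.80 and 11.59 in wild-type livers, with only wild-type liver 1 inside the knockout range. The difference was 0.30 ± 0.10, or 122.7% of wild-type (104.9% to 143.3%), at adjusted p = 0.189. Gys2, the liver glycogen synthase, differed by -0.11 ± 0.15 and the branching enzyme Gbe1 by -0.07 ± 0.10.

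Ppp1r3c and Ppp1r3b bring protein phosphatase 1 to glycogen and so favour its synthesis. Ppp1r3c read 9.50, 10.04, 10.09 and 10.12 in knockout livers 1 to 4 and 9.94, 10.31, 10.60 and 10.71 in wild-type livers 1 to 4. Mouse 1 was lowest in each group, and wild-type liver 1 fell inside the knockout range. The difference was -0.45 ± 0.18, or 73.0% of wild-type (55.6% to 95.8%), at adjusted p = 0.237. Ppp1r3b read 9.92, 10.80, 10.91 and 10.43 in knockout livers and 10.22, 10.74, 10.94 and 11.01 in wild-type livers, again lowest in mouse 1 of each group. It had the widest spread of the 28 genes (SD within groups 0.41, where Fbp1 had 0.04), and its difference was -0.21 ± 0.22, or -0.013 without knockout liver 1 and -0.382 without wild-type liver 1. A second Ppp1r3b probe set differed by -0.59 ± 0.25 (adjusted p = 0.286).

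Khk, ketohexokinase, commits dietary fructose to the liver's glycolytic pool. Knockout livers read 11.05, 11.11, 11.24 and 11.22, and wild-type livers 11.33, 11.36, 11.38 and 11.30. The groups did not overlap, the nearest being knockout liver 3 and wild-type liver 4. The difference was -0.19 ± 0.07, or 87.5% of wild-type (78.2% to 98.0%), at adjusted p = 0.231.

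None of the 4 regulators and hypoxia genes passed. Foxo1, which drives gluconeogenic genes when insulin is low, differed by 0.15 ± 0.11, and by 0.062 without knockout liver 1. Hif1a differed by 0.02 ± 0.09, though HIF1A is governed mainly by protein stability, which RNA does not measure. Vegfa, its angiogenic target, differed by -0.15 ± 0.14, and by -0.063 without knockout liver 4. Egln3, an oxygen-dependent prolyl hydroxylase that marks HIF1A for destruction and is itself a HIF target, read 9.62, 9.67, 9.88 and 10.49 in knockout livers and 9.52, 9.66, 9.53 and 9.58 in wild-type livers. Knockout liver 4 stood well above the other seven, the group difference was 0.34 ± 0.16 (adjusted p = 0.319), and it was 0.15 without that liver.

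Promoters were read for the 3 genes whose groups did not overlap and for Ppp1r3c, which had the largest difference. Shown are the 250 bases before the annotated start, for Ldha the first of 2 starts (RefSeq, GRCm38.p6), 5′ to 3′ on the strand of the gene, with capitals on every ACGTG and its reverse complement CACGT. These letters are the core of the element that HIF binds, and the E-box CACGTG, which clock and glucose-responsive factors bind, contains it on both strands. The windows are chr7:46845554-46845803 (plus strand) for the upstream start of Ldha, chr12:70227684-70227933 (minus) for Pygl, chr5:30921309-30921558 (plus) for Khk and chr19:36736605-36736854 (minus) for Ppp1r3c.
Ldha: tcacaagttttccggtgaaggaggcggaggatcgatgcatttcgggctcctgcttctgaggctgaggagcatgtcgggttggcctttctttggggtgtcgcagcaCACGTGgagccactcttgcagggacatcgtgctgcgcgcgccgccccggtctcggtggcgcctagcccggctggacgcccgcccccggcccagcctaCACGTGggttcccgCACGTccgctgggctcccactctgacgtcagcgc
Pygl: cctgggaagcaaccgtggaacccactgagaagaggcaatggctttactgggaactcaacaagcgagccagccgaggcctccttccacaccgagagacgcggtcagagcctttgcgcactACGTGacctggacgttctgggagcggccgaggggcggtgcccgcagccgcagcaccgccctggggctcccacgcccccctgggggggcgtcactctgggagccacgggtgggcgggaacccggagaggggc
Khk: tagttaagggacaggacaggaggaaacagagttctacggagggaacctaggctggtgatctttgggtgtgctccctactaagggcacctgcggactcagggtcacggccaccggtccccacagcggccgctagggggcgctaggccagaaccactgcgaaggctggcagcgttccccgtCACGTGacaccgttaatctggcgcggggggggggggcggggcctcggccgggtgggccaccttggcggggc
Ppp1r3c: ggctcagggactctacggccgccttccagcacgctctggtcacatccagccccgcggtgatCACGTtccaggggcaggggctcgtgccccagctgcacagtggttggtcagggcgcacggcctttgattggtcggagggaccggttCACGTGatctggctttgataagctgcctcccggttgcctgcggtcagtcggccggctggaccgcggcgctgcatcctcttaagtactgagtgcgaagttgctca
Ldha holds E-boxes that begin 145 and 48 bases before the start and a further CACGT at 34, Khk holds an E-box at 71, Ppp1r3c an E-box at 104 and a CACGT at 189, and Pygl an ACGTG at 131. The window before the second Ldha start, not printed, holds none of these letters.

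Across the list the hypoxia core was frequent and the genes that held it did not share a direction. Promoter windows were found for 30 of the 32 genes, measured or not. Searched on both strands, ACGTG lay in 15 of the 30 (50.0%), beside 18.5% of 27025 genes and 16.6% of all windows, and CACGTG, which overlaps it, in 6 (20.0%, beside 6.86% of genes). The other form of the hypoxia core, GCGTG, lay in 14 (46.7%, beside 30.9%), and the D-box TTANGTAA, which Dbp binds, in Eno1 and G6pc, or 6.67% beside 2.44%. Of the 14 measured genes with ACGTG, 8 differences were positive and 6 negative, from -0.45 for Ppp1r3c to 0.34 for Egln3, and none passed. The list was chosen by name and includes genes that hypoxia is known to induce, so the share with the core is no finding of these data. Base composition was not matched, and a match of letters is no evidence of binding.

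Mouse number was followed in the same genes, since both livers numbered 1 stood apart in the clock. Nr1d1, a repressor of the clock, read 11.32 and 11.36 in the livers numbered 1 and 8.16 to 9.77 in the other six, and Arntl, its target, 8.68 and 8.57 against 9.82 to 10.19. In 14 of the 28 glucose genes (50.0%) mouse 1 was the highest, or the lowest, of the knockout and of the wild-type group alike, beside 19.4% of all genes and 25.3% of the brighter ones. The same count was 0 for mouse 2, 3 (10.7%) for mouse 3 and 1 (3.57%) for mouse 4, beside 10.5%, 10.6% and 11.3% of all genes.

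Genes highest in mouse 1 of both groups were Slc2a2, Pfkfb3, Pklr, Pck2, Gys2 and Foxo1. Slc2a2 read 11.85 and 12.07 in the livers numbered 1 and 11.46 to 11.57 in the other six, and Gys2 read 11.78 and 11.87 against 11.18 to 11.47. Lowest in mouse 1 of both groups were Pfkl, Pgk1, Pgam1, Slc16a1, G6pc, Ppp1r3b, Ppp1r3c and Egln3. Ppp1r3b read 9.92 and 10.22 against 10.43 to 11.01, and Slc16a1 10.61 and 10.85 against 11.03 to 11.24. For these 4 genes both livers numbered 1 lay outside the range of all 6 others, whatever their genotype. The same was true of Pfkfb3, Pck2, Pfkl, Pgk1 and Ppp1r3c, and not of Pklr, Foxo1, Pgam1, G6pc and Egln3. Labels gave no hour of killing and no feeding state, and their part in these values was not tested. With both arrays left out, still none of the 28 genes passed, and the lowest adjusted p was 0.131, for Ppp1r3c.

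**Figure D3:**
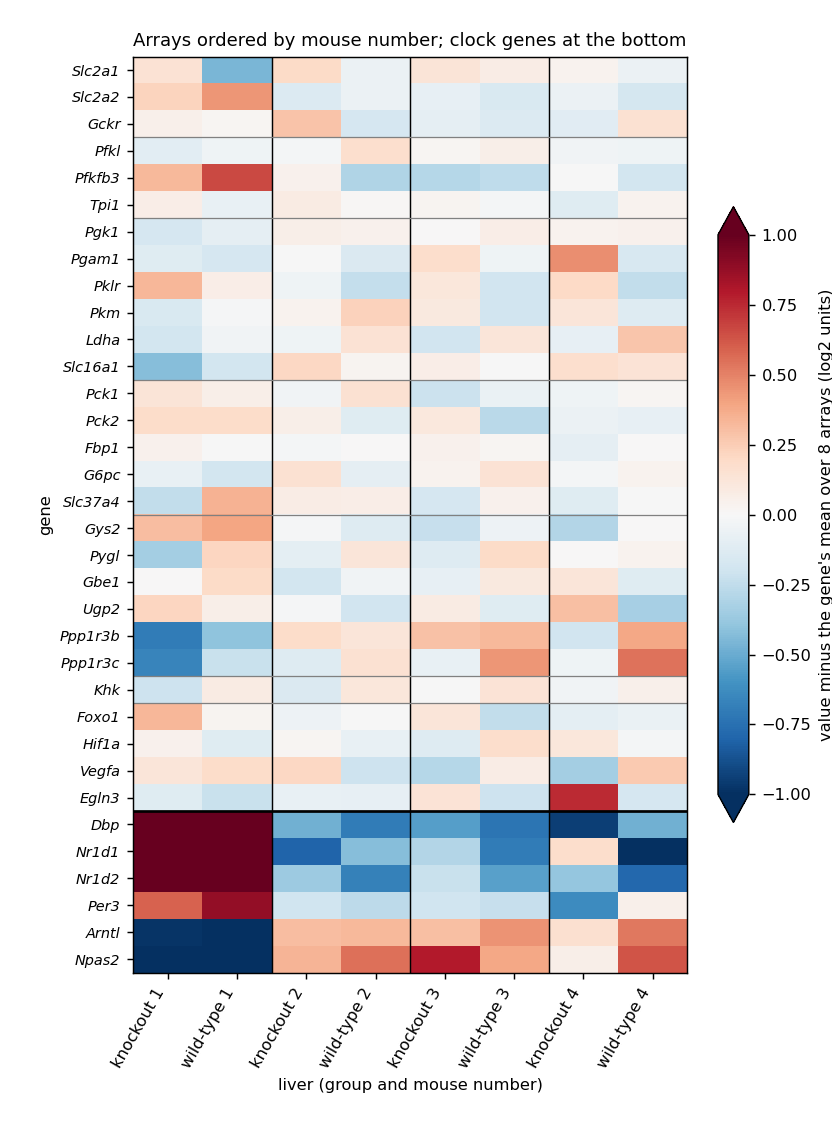
Value of each gene minus its mean over the 8 arrays, in log2 units (colour, values past 1 unit shown at the end of the scale), with livers ordered by mouse number and group and genes by role; 6 clock genes stand below the thick line. Columns of mouse 1 share strong colours in the clock genes and, in both groups, high Slc2a2, Gys2 and Pfkfb3 and low Ppp1r3b, Ppp1r3c and Slc16a1.

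Each class of control was also set against the knockout livers, which both comparisons share. None of the 28 genes passed against controls with Cre and 1 floxed allele or against controls without Cre, where 0.131% and 0.212% of all genes passed. At an unadjusted p under 0.05 there were 3 of the 28 (10.7%, beside 11.8% of all genes) against the first class and 4 (14.3%, beside 11.5%) against the second, shares near those of all genes. Pygl differed by -0.34 against the first class and -0.21 against the second, Ldha by -0.17 and -0.34, Ugp2 by 0.18 and 0.41, and Ppp1r3c by -0.34 and -0.57. Between the control classes 0 genes of all 22180 passed, 3.03% having an unadjusted p under 0.05, and none of the 28 did. Among the 28 the control classes were farthest apart in Pfkfb3 (0.44, Cre-carrying minus Cre-free), and wild-type liver 1, with the clock values above, belongs to the Cre-carrying class.

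Other genes of the same pathways were taken from 7 lists, of which 130 of 146 were measured. None rose, 1 fell and 129 did not pass, with a median of -0.03, and 28 had an unadjusted p under 0.05 (21.5%, beside 16.7% of all genes). The gene that fell was Anln, anillin, placed in the list for its presence in hypoxia signatures and known as a scaffold of cell division. It read 6.82 to 7.17 in knockout and 7.55 to 8.01 in wild-type livers, a fall by 0.70 ± 0.12 (adjusted p = 0.0216). That call was lost without knockout liver 1 or 2, and the 7 measured markers of dividing cells fell too, their mean level lying between 7.57 and 7.99 in knockout and between 8.44 and 8.94 in wild-type livers, whose part in the Anln value was not tested.

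In the hypoxia list that holds Anln, the other 30 of 31 measured genes did not pass, and the list median was 0.01. Adm, adrenomedullin, a peptide induced by low oxygen, differed by -0.38 ± 0.13, Pdk1, the kinase that closes pyruvate dehydrogenase, by -0.25 ± 0.10 and the lipid droplet gene Hilpda by 0.26 ± 0.11. The adjusted p was 0.186 for Adm, 0.268 for Pdk1 and 0.280 for Hilpda. Of the 31 differences 16 were positive and 15 negative.

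Of the 25 measured genes of gluconeogenesis and its regulators, none passed and the list median was -0.04. Creb3l3, a liver transcription factor that fasting activates, came nearest: it read 10.95, 10.97, 11.08 and 11.13 in knockout and 11.42, 11.33, 11.36 and 11.40 in wild-type livers. These groups did not overlap, and the difference of -0.34 ± 0.07 missed the threshold at adjusted p = 0.0535. Creb3l3 passed with array weights, with centred arrays, under both filters on dim genes and with a trended variance. It did not pass in the rest of the 21 alternative settings. Those include each control class alone, the replicate block, the Y-linked covariate and every fit that left arrays out. Got1, the cytosolic aspartate aminotransferase that feeds carbon to Pck1, differed by 0.42 ± 0.10 (adjusted p = 0.0755) and Igfbp1, a secreted protein gene that insulin represses, by 0.45 ± 0.12 (adjusted p = 0.0952), both without overlap.

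Of 21 further glycolytic genes measured none passed, with a median of 0.05. Ldhb, the other subunit of lactate dehydrogenase, read 6.80, 7.08, 6.90 and 6.66 in knockout livers and 6.63, 6.64, 6.21 and 6.50 in wild-type livers. It did not overlap between groups, and its difference of 0.37 ± 0.12 (adjusted p = 0.164) had the opposite sign to that of Ldha. Slc16a7, the carrier MCT2, differed by 0.25 ± 0.09 and the aldolase gene Aldoc by -0.28 ± 0.09.

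Glycogen genes outside the main list had a median of 0.06 over 22 measured, none of which passed. Phkb, the beta subunit of the kinase that switches phosphorylase on, read 8.53 to 8.71 in knockout and 8.88 to 8.92 in wild-type livers, a difference of -0.26 ± 0.07 (adjusted p = 0.110). Pgm2, a phosphomutase, read 8.54 to 8.86 against 8.44 to 8.47, a difference of 0.29 ± 0.08 (adjusted p = 0.125), and the glycogen primer Gyg differed by 0.21 ± 0.08. Phkb and Pgm2 were among the 4 of 22 genes (18.2%) without overlap between groups, beside 10.7% of all genes.

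In the pentose phosphate list 7 genes were measured and none passed, transaldolase Taldo1 standing at -0.24 ± 0.09, H6pd at -0.08 ± 0.07 and Pgd at -0.09 ± 0.09. Among 9 genes of other hexoses none passed, and Mpi, mannose phosphate isomerase, was nearest at -0.34 ± 0.08 (adjusted p = 0.0671), followed by the transporters Slc2a10 at 0.23 ± 0.10 and Slc2a9 at -0.18 ± 0.10. Of 15 glucose and insulin sensing factors 13 differences were negative, with a median of -0.12, and none passed. Negative differences numbered 9504 over all 22180 genes and 6154 over the brighter 11090. Only 1 of the 15 had an unadjusted p under 0.05 (6.67%, beside 16.7% of all genes). Mlx, the partner that the glucose-sensing factor ChREBP needs to bind DNA, stood at -0.35 ± 0.10 (adjusted p = 0.107) without overlap, Prox1 at -0.17 ± 0.08 and Klf10 at -0.47 ± 0.25.

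**Figure D4:**
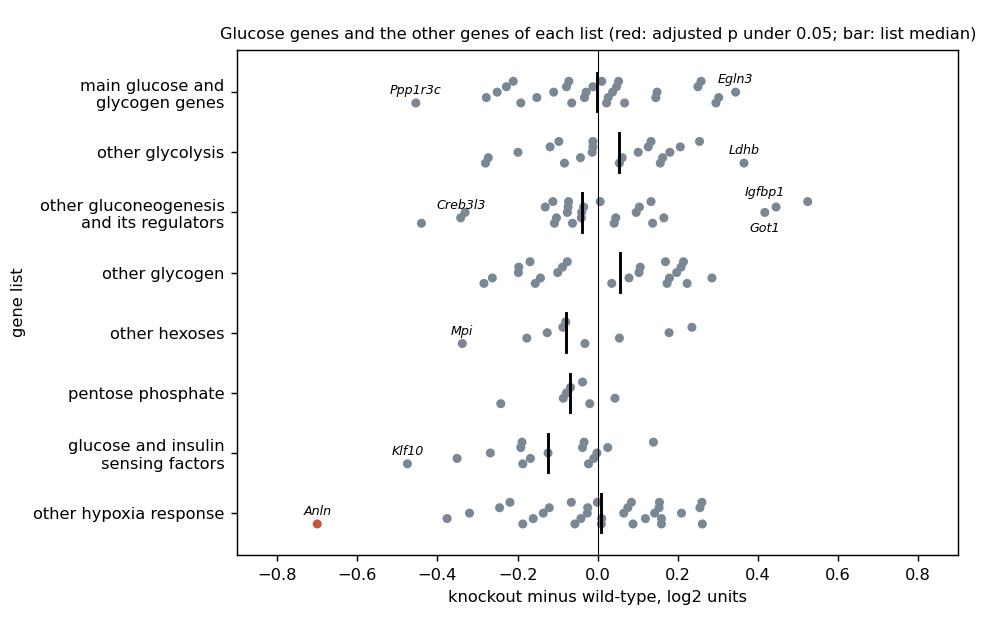
Differences in log2 units, knockout minus wild-type, of the 28 measured glucose and glycogen genes and of the 130 genes of 7 further lists (1 point per gene, red where the adjusted p was under 0.05, spread vertically only to separate points), with the list median as a bar. Anln is the single red point, and list medians lie between -0.12 and 0.06.

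Cell types that also use these genes were read beside them. Periportal hepatocytes carry most gluconeogenesis and pericentral ones more glycolysis, and none of 7 periportal and 9 pericentral markers passed: the list medians were -0.01 and -0.02, Hsd17b13 standing at 0.31 ± 0.09, Cdh1 at 0.11 ± 0.09, Oat at 0.21 ± 0.08 and Glul at -0.20 ± 0.08. Macrophages, which carry Pkm and Slc2a1, had 1 of 10 markers that rose, Gpnmb, with a list mean of 9.29 to 9.77 in knockout and 9.04 to 9.57 in wild-type livers, and Cd68 at 0.36 ± 0.09. None of 7 muscle markers passed, with a list mean of 5.94 to 6.20 against 5.77 to 5.90, and none of 6 lymphocyte markers, with 6.27 to 6.49 against 6.06 to 6.18. Those of endothelial cells (8), stellate cells and fibroblasts (8), bile duct cells (5), neutrophils (6) and red cell precursors (6) did not pass either, with medians from -0.14 for stellate cells to 0.12 for neutrophils. The part of these cells in the values of Pkm, Slc2a1 and Pgam1 was not tested.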

How the data were processed

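The authors deposited log2 expression values of 39137 probe sets on 8 arrays, computed by RMA in oligo (1.24), a tool that the submitters' processing notes name. No label states the log2 scale, which was inferred from the method and the range of 1.28 to 13.88. The chip definition was not given in the sources used here. Of the probe sets 23521 had 1 gene symbol, 1814 several and 13802 none. Only the first were used, the brightest standing for a gene, which left 22180 genes. Differences were fitted by lmFit and eBayes of limma (3.58.1, R 4.3.3), two-sided, adjusted by Benjamini-Hochberg over all genes at a threshold of 0.05. Errors are standard errors and intervals are unadjusted 95% intervals. A 3-group fit divided the controls. Genes and lists were chosen with earlier results of these data known. Outside the main list, genes past the threshold and up to 3 of smallest adjusted p per list are named, up to 2 for cell types. On simulated data for 22180 genes the step recovered 59.6% of differences of 0.5 and 93.4% of differences of 1. The simulated noise was independent between genes, and no difference smaller than 0.5 was simulated. All differences of the 28 genes were smaller than that, so these rates do not cover them. Promoter windows are RefSeq's for GRCm38.p6. Alternatives changed probe set choice, filters, normalization, variance model, covariates, controls and arrays. The number of arrays limits precision. Python version 3.11.15 with pandas version 2.3.3 and matplotlib version 3.10.9 read and drew the values.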

Additional observations from a re-analysis of the deposited data

Results flagged for a closer look

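In 3 of the groups of 4 livers among the glucose and glycogen genes, 1 liver lay far from the other three, by a rule (Dixon's, at 95%) that chance meets in about 1 of 20 groups. Wild-type liver 1 had Pfkfb3 at 7.51, the others lying at 6.55 to 6.67. Wild-type liver 3 had Pgam1 at 11.05, against 10.92 to 10.94. Knockout liver 1 had Ppp1r3c at 9.50, against 10.04 to 10.12. Among the named genes of the other lists, knockout liver 1 had Taldo1 at 8.42, against 8.74 to 8.79, and knockout liver 3 had Pgd at 10.92, against 10.58 to 10.64. These were 5 of 100 groups examined.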

How the results depend on the processing

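Across 21 alternative settings none of the 28 glucose and glycogen genes passed (lowest adjusted p 0.0586, limma, Ppp1r3c with the replicate number as a block), except that 1 rose, Pgam1, when any probe set of a gene counted, a setting chosen after seeing the data. Of 588 values 549 kept their direction and 39, in 12 genes, reversed; the cause was not tested. With controls without Cre only, the differences were 0.102 for Slc2a2, -0.007 for Tpi1, -0.024 for Pkm, -0.076 for Slc16a1, 0.008 for Gys2 and 0.046 for Gbe1, and with Cre-carrying controls only -0.184 for Pfkfb3 and -0.014 for Hif1a. With the Y-linked level as a covariate they were 0.017 for Fbp1, -0.001 for Hif1a, -0.001 for Pkm and -0.049 for Slc16a1. Centring each array gave -0.007 for Hif1a, -0.019 for Slc16a1 and -0.003 for Tpi1, repeated quantile normalization 0.011 for Pgk1 and 0.001 for Slc2a2, and the mean of probe sets -0.023 for Hif1a. Leaving out replicates, ranges that crossed 0 were -0.030 to 0.015 for Fbp1, -0.006 to 0.102 for G6pc, -0.018 to 0.130 for Gckr, -0.233 to 0.004 for Gys2, -0.024 to 0.084 for Hif1a, -0.064 to 0.264 for Pfkfb3, -0.068 to 0.017 for Pgk1, -0.003 to 0.138 for Pkm, -0.056 to 0.153 for Slc16a1, -0.108 to 0.113 for Slc2a2 and -0.012 to 0.072 for Tpi1. Calls over all genes, 255 as reported, were 151 with the Y-linked covariate, 6 and 16 with Cre-carrying and Cre-free controls only, 456 and 442 under the weaker and the stricter filter on dim genes, 459 with a trended and robust variance, and 65 to 175 without replicates (65 without both mice numbered 1, 91 without wild-type liver 2). Centring each array gave 357, of which 24.1% were higher, where 37.6% were as reported. Among the other pathway genes the 1 call became 0 with either control class, 2 with array weights, 3 with centring or a trended variance, 4 with either filter (where the calls numbered 2 to 4 they held Anln and Creb3l3, and in some settings Got1 or Mpi), and 0 to 1 without replicates. The livers numbered 1 deviated together (correlation 0.273) and those numbered 2 to 4 did not (-0.022, 0.031 and -0.102), so the numbers were not taken to pair all the mice, and the replicate block gave 210 calls over all genes and 0 among the 28.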
